A study of Mus musculus with 42 samples.

Results

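The gene Trp53, which encodes the transcription factor p53, and 9 genes described as its targets were followed through the differentiation of mouse embryonic stem (ES) cells. The 10 genes are Trp53, Cdkn1a, Mdm2, Ccng1, Trp53inp1, Bbc3, Phlda3, Zmat3, Bax and Trp53i11. They were listed by name and matched by symbol through the mouse gene annotation, and all 10 were among the 14296 genes measured. The cells were the ES line W9.5 of strain 129X1/SvJ at passage P18, which formed embryoid bodies by undirected differentiation after withdrawal of LIF, the cytokine that keeps ES cells undifferentiated. Poly-A RNA was sequenced at 21 time points from 0 h to 120 h, 6 h apart, in duplicate cultures named replicate A and replicate B, which gave 42 libraries. All libraries share the line and the protocol, no treated or p53-deficient cells were included, and the 0 h libraries served as the reference. Each library is a bulk culture, so that a change in the share of cells that express a gene and a change in RNA per cell cannot be told apart.

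p53 is a sequence-specific activator that accumulates as protein when DNA is damaged or when cells are otherwise stressed, and its level is set mainly by protein turnover. Its target Mdm2 encodes the ubiquitin ligase that removes it, which closes a feedback loop, and other targets stop the cell cycle, above all Cdkn1a, or promote cell death, such as Bbc3 and Bax. ES cells express p53 abundantly and divide with a short G1 phase, and p53 is known to act on pluripotency genes when they differentiate. Only RNA was measured here, and neither p53 protein nor its modification was assayed.

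To show which of these genes carry a sequence like that bound by p53 close to their start, the promoter windows of RefSeq on GRCm38.p6 were searched for the p53 response element. The element was taken as a pair of 10-base sites with C at position 4 and G at position 7 of each, with 0 or 1 base between them and at most 3 mismatches of 20 bases to the consensus. It reads the same on both strands. Windows were held for 8 of the 10 genes, 11 windows in all, and 5 genes had a match, each in 1 window. Zmat3 and Trp53inp1 were not searched. The 250 bases before the start site are printed 5′ to 3′ on the strand of the gene, with the matched element in capitals, for Cdkn1a and Ccng1, which had the closest matches, and for Mdm2, which had none in this window.
Cdkn1a: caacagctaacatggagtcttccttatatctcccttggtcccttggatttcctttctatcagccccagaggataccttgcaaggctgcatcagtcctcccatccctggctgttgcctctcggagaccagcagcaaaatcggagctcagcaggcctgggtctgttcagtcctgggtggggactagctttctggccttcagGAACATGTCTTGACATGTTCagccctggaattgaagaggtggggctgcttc
Ccng1: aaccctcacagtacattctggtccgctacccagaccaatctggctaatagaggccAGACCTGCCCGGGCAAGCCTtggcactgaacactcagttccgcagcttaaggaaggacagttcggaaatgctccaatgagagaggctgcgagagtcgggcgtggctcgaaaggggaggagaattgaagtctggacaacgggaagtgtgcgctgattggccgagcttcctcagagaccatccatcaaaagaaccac
Mdm2: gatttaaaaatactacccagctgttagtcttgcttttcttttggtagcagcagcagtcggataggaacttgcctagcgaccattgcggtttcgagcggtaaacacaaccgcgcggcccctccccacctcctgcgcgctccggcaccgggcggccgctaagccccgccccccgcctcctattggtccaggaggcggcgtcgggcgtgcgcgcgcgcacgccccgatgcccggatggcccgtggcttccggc
The Cdkn1a stretch lies at chr17:29090729-29090978 on the plus strand. Its element differed from the consensus at 1 base and ended 31 bases before the first of the Cdkn1a start sites searched. The Ccng1 stretch lies at chr11:40755287-40755536 on the minus strand, and its element differed at 1 base and ended 175 bases before the start. The Mdm2 stretch lies at chr10:117710759-117711008 on the minus strand. The weaker matches are printed alone, because they show how far the remaining elements stood from these.
Bax: AGGCAAGCTTTGAACTTGCGG
Bbc3: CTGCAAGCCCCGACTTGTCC
Trp53: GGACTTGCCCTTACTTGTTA
The Bax element, on the minus strand of chromosome 7, had 2 mismatches and 1 base between its decamers. The Bbc3 element on chromosome 7 and the Trp53 element on chromosome 11, both on the plus strand, had 3 mismatches each. Of all 32851 promoter windows, 0.11% held an element with at most 1 mismatch, 0.682% with at most 2 and 2.82% with at most 3. The windows of Phlda3 and Trp53i11 and the other windows of Cdkn1a and Bbc3 had no match. The Bbc3 windows have start sites 1190, 1868 and 2038 bases from the annotated gene start, and the other Cdkn1a window 2793 bases. These windows thus lie inside the annotated genes, and the Bbc3 match is in the first of them. A match describes the letters and is not a shown binding site, and sequence outside the windows, in introns or farther away, was not searched.

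The libraries held between 10120972 and 51652434 counted reads, with 29692082 as the median. The 10 genes were well covered, from 241 reads for Bbc3 in its lowest library to 28109 for Trp53 in its highest. At 0 h the 6 pluripotency markers Pou5f1, Nanog, Sox2, Zfp42, Esrrb and Dppa5a summed to between 4425 and 4859 CPM (reads scaled to library size). The fibroblast genes Col3a1 and Dcn, markers of feeder cells, had 0 reads in both 0 h libraries, and the 6 measured feeder markers summed to between 24.3 and 28.1 CPM there, nearly all from Col1a1 and Thy1. The duplicates lay close at most times, with a median absolute difference over all genes between 0.0899 and 0.274 log2 units, and stood apart at 96 h, where it was 0.407. All 10 genes were higher in replicate B than in replicate A at 96 h, against 49.3% of all genes. For the 10 genes, each call that these libraries altered is given with and without them. Correlations of courses were computed only with them.

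**Figure D1:**
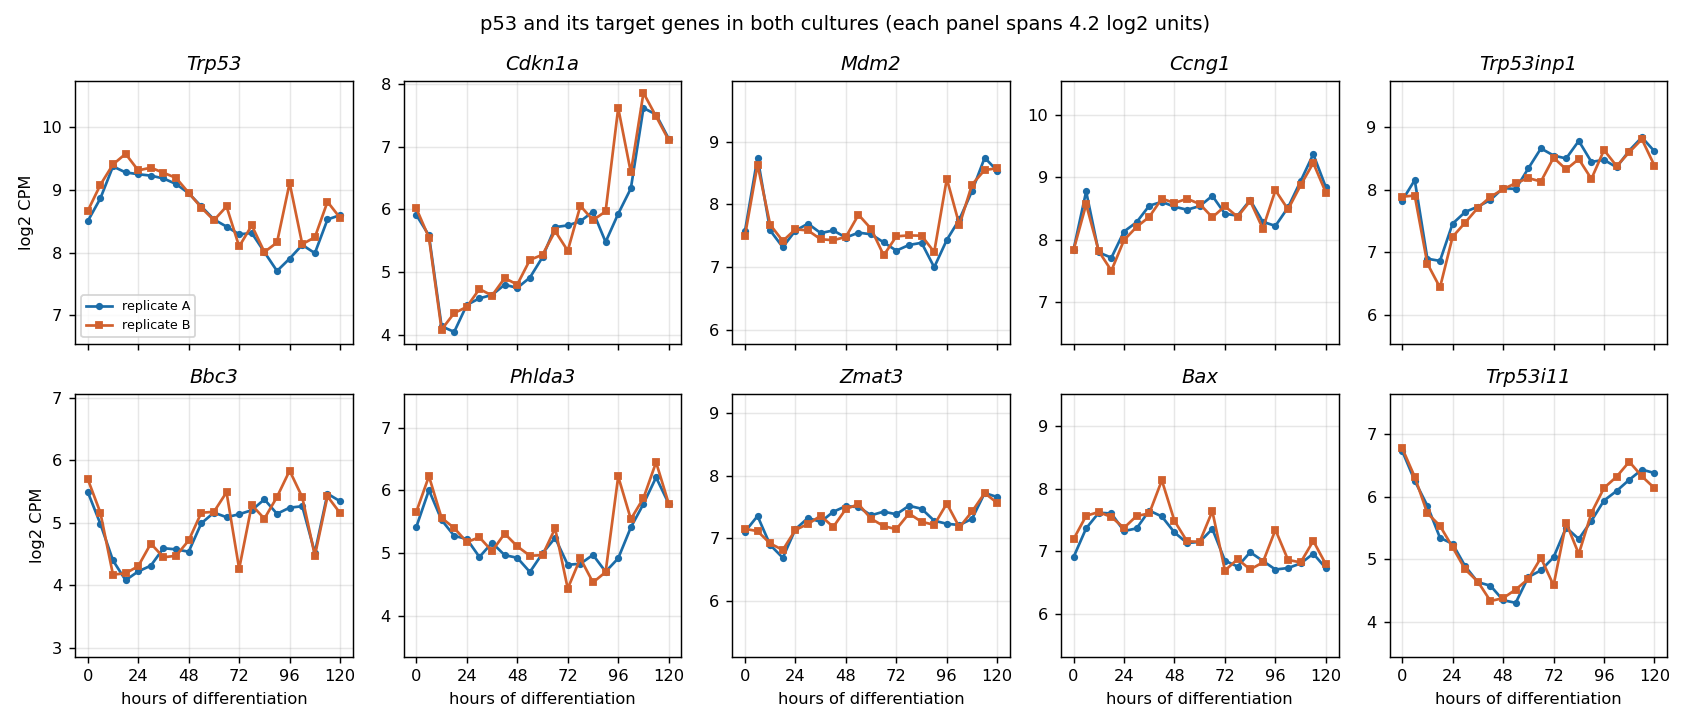
Levels of the 10 genes (log2 CPM, vertical axes) in each of the 42 libraries by hours of differentiation, with replicate A as circles and replicate B as squares. Cdkn1a has the widest course, from 4.11 at 12 h to 7.74 at 108 h in the mean of the duplicates, Mdm2 and Ccng1 peak at 6 h and again late, Trp53i11 dips to 4.36 at 48 h, and replicate B at 96 h stands above its neighbours for Cdkn1a, Trp53, Mdm2 and Phlda3.

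Every one of the 10 genes changed over the course in the moderated F test of limma (adjusted p from 1.5e-16 for Trp53i11 to 1.4e-06 for Zmat3), beside 74.6% of all genes. Without both 96 h libraries the adjusted p of this test ran from 1.4e-18 for Cdkn1a to 1.9e-07 for Zmat3, beside 11196 genes called. A change as such thus does not set the 10 genes apart. Their courses differed in kind. Mean levels spanned 12.4-fold for Cdkn1a, 5.26-fold for Trp53i11, 4.51-fold for Trp53inp1 and between 1.96-fold and 3.27-fold for the other 7. In all following tests adjusted p is from limma with Benjamini-Hochberg adjustment over all genes, the threshold is adjusted p under 0.0001, and SE is the standard error of the fitted log2 change with n = 2 libraries per time point.

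Trp53, the gene of p53 itself, was at 8.50 (A) and 8.66 (B) log2 CPM at 0 h and reached its highest mean, 9.43, at 18 h, with 9.28 in A and 9.58 in B. At 48 h the values were 8.95 and 8.95, at 90 h they were 7.70 and 8.16, the lowest mean, and at 120 h they were 8.60 and 8.55. The gene was therefore high in the first 2 days and low around the fourth, except in B at 96 h. The 96 h values were 7.90 in A and 9.11 in B. At 120 h the gene was back at its starting level. The change from 0 to 6 h was 0.39 (SE 0.21, adjusted p = 0.11) and that from 0 to 120 h was -0.01 (SE 0.21, adjusted p = 0.98), neither past the threshold. From 48 to 72 h the change was -0.76 (SE 0.21, adjusted p = 0.0052), which passed the threshold with both 96 h libraries left out (adjusted p = 3.4e-05). The 96 h pair held 67.2% of the variance between duplicates for this gene. A Trp53 pseudogene exists in the mouse annotation, and reads shared with it cannot be told apart.

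Mdm2, the ubiquitin ligase that degrades p53, rose sharply in the first 6 h. It was at 7.57 (A) and 7.50 (B) log2 CPM at 0 h, at 8.75 and 8.64 at 6 h and at 7.58 and 7.68 at 12 h, so that the high level was seen at a single early time point. The change from 0 to 6 h was 1.16 (SE 0.17, adjusted p = 1.8e-06), a 2.24-fold rise, and from 6 to 24 h Mdm2 fell by 1.10 (SE 0.17, adjusted p = 8.6e-06). It then stayed between 7.12 and 7.69 in mean level from 18 to 90 h and was at 8.75 and 8.55 at 114 h and at 8.54 and 8.58 at 120 h. The change from 0 to 120 h was 1.03 (SE 0.17, adjusted p = 1.1e-05). With any 1 library of either time point left out, the adjusted p for 0 to 6 h ran from 3.5e-05 to 0.00012, the highest being without replicate A at 6 h, where the change was 1.10. For 6 to 24 h and 0 to 120 h it ran from 0.00015 to 0.00045, past the threshold in no case, with changes from -1.16 to -1.04 and from 0.99 to 1.06.

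Ccng1 encodes cyclin G1, a p53 target that takes part in the control of Mdm2 through a phosphatase. It was at 7.84 (A) and 7.83 (B) log2 CPM at 0 h, at 8.77 and 8.57 at 6 h, and at 7.80 and 7.82 at 12 h. The early peak thus fell at the same time point as that of Mdm2, but Ccng1 later regained it, with 8.53 and 8.59 at 48 h and a highest level of 9.37 and 9.23 at 114 h. Ccng1 rose by 0.83 from 0 to 6 h (SE 0.13, adjusted p = 3e-06), by 0.72 from 0 to 48 h (SE 0.13, adjusted p = 1.9e-05) and by 0.96 from 0 to 120 h (SE 0.13, adjusted p = 3.4e-07). From 6 to 24 h the change was -0.61 (SE 0.13, adjusted p = 0.00036, and 1.5e-05 without both 96 h libraries). The rise to 120 h passed the threshold with each library of either time point left out (adjusted p from 9.3e-06 to 3.2e-05). The rise to 6 h did not pass without replicate B at 0 h (0.83, adjusted p = 0.00011) or replicate A at 6 h (0.73, adjusted p = 0.00034), nor the rise to 48 h without any 1 of its 4 libraries (0.69 to 0.75, adjusted p from 0.00028 to 0.00065).

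Cdkn1a encodes p21, the inhibitor of cyclin-dependent kinases that arrests the cell cycle, and it did not share the early peak of Mdm2. It was at 5.91 (A) and 6.02 (B) log2 CPM at 0 h, at 5.58 and 5.55 at 6 h, and at 4.13 and 4.08 at 12 h, its lowest mean. From there the mean of the duplicates was higher at each full day, with 4.74 and 4.80 at 48 h, 5.74 and 5.34 at 72 h, 7.62 and 7.86 at 108 h, its highest, and 7.13 and 7.11 at 120 h. No library between 12 and 54 h reached the level of the 0 h libraries, and every library from 102 h on was above it. The change from 6 to 24 h was -1.11 (SE 0.27, adjusted p = 0.0017), from 0 to 48 h it was -1.19 (SE 0.27, adjusted p = 0.00042) and from 0 to 120 h it was 1.16 (SE 0.27, adjusted p = 0.00072), none past the threshold. The 96 h pair, at 5.93 in A and 7.62 in B, held 77.3% of the variance between duplicates for Cdkn1a. With both 96 h libraries left out the SE was 0.14 and the same changes had adjusted p of 3.3e-07, 3.5e-08 and 7.5e-08, and the change from 48 to 72 h, 0.77, had 6.6e-05. An antisense transcript overlaps Cdkn1a in the annotation and the strand setting of the counting was not given in the sources used here.

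Bbc3 encodes Puma, a protein of the cell death pathway that neutralises the Bcl-2 guardians of mitochondria. It was at 5.50 (A) and 5.70 (B) log2 CPM at 0 h, its highest mean, and at 4.08 and 4.19 at 18 h, its lowest. It was at 4.54 and 4.72 at 48 h and between 5.08 and 5.54 in mean level at most later times, apart from 72 h, where B was at 4.27 and A at 5.14, and 108 h, where both were low at 4.52 and 4.48. The change from 0 to 48 h was -0.97 (SE 0.20, adjusted p = 0.00013), past the threshold without both 96 h libraries (adjusted p = 4.4e-05). From 96 to 108 h it was -1.04 (SE 0.20, adjusted p = 0.00019), while without replicate A at 96 h it was -1.34 (adjusted p = 3.1e-05) and without replicate B -0.74 (adjusted p = 0.013). The low level at 108 h was found in both cultures, and those of 102 h (5.27 and 5.41) and 114 h (5.47 and 5.42) stood above it.

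Bax, which forms the pores that open the outer mitochondrial membrane, followed another course than Bbc3. It was at 6.91 (A) and 7.19 (B) log2 CPM at 0 h, at 7.62 and 7.63 at 12 h, at 7.56 and 8.14 at 42 h, its highest mean, and at 6.73 and 6.79 at 120 h, its lowest. No change of Bax between the time points tested passed the threshold. The largest was -0.62 from 48 to 72 h (SE 0.16, adjusted p = 0.0029). Bax shares exon sequence with a neighbouring annotated gene on the same strand, so that its counts are uncertain to that extent.

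Phlda3 encodes a small protein that competes with the survival kinase Akt for membrane lipids. Its levels of 5.42 (A) and 5.66 (B) log2 CPM at 0 h, 6.00 and 6.23 at 6 h, 4.81 and 4.43 at 72 h and 6.21 and 6.45 at 114 h drew a course with an early and a late peak. The change from 0 to 6 h was 0.58 (SE 0.23, adjusted p = 0.033) and that from 6 to 24 h was -0.92 (SE 0.23, adjusted p = 0.0023, and 1.1e-05 without both 96 h libraries). The 96 h pair, at 4.91 and 6.22, held 65.0% of its variance between duplicates.

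Trp53inp1, a nuclear protein that assists p53 in stress and takes part in autophagy, was low between 12 and 18 h and high late. It was at 7.82 (A) and 7.89 (B) log2 CPM at 0 h, at 8.15 and 7.91 at 6 h, at 6.86 and 6.44 at 18 h, at 8.03 and 8.01 at 48 h and at 8.84 and 8.81 at 114 h. The changes were -0.68 from 6 to 24 h (SE 0.14, adjusted p = 0.00039), 0.67 from 24 to 48 h (SE 0.14, adjusted p = 0.00059) and 0.64 from 0 to 120 h (SE 0.14, adjusted p = 0.00041), none past the threshold. With the replicate block, which pairs the libraries of each culture, these had adjusted p of 4.5e-05, 7.3e-05 and 5.1e-05. Trp53inp1 was the member least touched by the 96 h pair, at 8.48 and 8.63, which held 2.72% of its variance between duplicates.

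Zmat3, a zinc finger protein that binds RNA, varied least, from a mean of 6.75 log2 CPM at 18 h to 7.72 at 114 h. It was at 7.11 (A) and 7.15 (B) at 0 h and at 7.66 and 7.57 at 120 h, a change of 0.48 (SE 0.11, adjusted p = 0.00045) that did not pass the threshold, although both cultures were higher.

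Trp53i11, a gene named for its induction by p53 in tumour cells, was lower at each time point up to 48 h and came back later. It was at 6.74 (A) and 6.78 (B) log2 CPM at 0 h, at 5.25 and 5.19 at 24 h, at 4.35 and 4.38 at 48 h, at 5.94 and 6.14 at 96 h and at 6.38 and 6.14 at 120 h. It fell by 1.07 from 6 to 24 h (SE 0.13, adjusted p = 2.7e-07), by 0.86 from 24 to 48 h (SE 0.13, adjusted p = 9.7e-06) and by 2.39 from 0 to 48 h (SE 0.13, adjusted p = 1.8e-14), to a level 5.26-fold lower. It rose by 1.23 from 72 to 96 h (SE 0.13, adjusted p = 1.1e-07), and this rise passed the threshold without replicate A at 96 h (1.33, adjusted p = 4e-07) and without replicate B (1.13, adjusted p = 9.5e-06). The fall from 24 to 48 h alone did not pass when any 1 of its 4 libraries was left out (-0.88 to -0.83, adjusted p from 0.00023 to 0.00045).

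**Figure D2:**
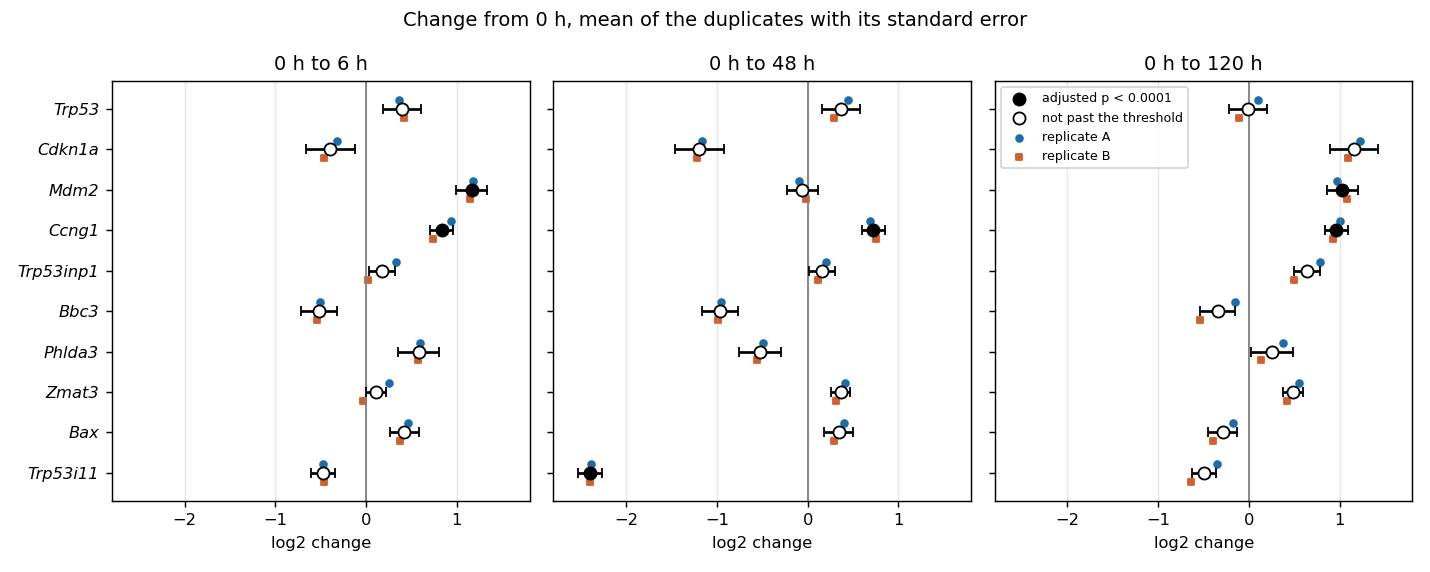
Log2 change (horizontal axis) of each gene from 0 h to 6 h, 48 h and 120 h, as the mean of the duplicates with its standard error, filled where adjusted p was under 0.0001, with the change within replicate A (small circles) and replicate B (small squares). Mdm2 (1.16) and Ccng1 (0.83) lie to the right at 6 h and again at 120 h, whereas Trp53i11 (-2.39) lies far to the left at 48 h.

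Counted by interval, 2 of the 10 genes rose and 0 fell in the first 6 h, beside 26.3% of all genes called (11.8% higher). Between 6 and 24 h 2 fell and 0 rose, beside 11.4% (5.76% lower). Between 24 and 48 h 1 fell, beside 8.97% (3.7% lower), and between 72 and 96 h 1 rose, beside 3.39% (2.39% higher). Against 0 h, 1 was higher and 1 lower at 48 h, beside 30.4% (14.8% higher and 15.6% lower), and 2 were higher at 120 h, beside 23% (12.9% higher). By limma at the threshold, 0 were called between 48 and 72 h (9.38% of all genes), between 96 and 108 h (6.99%) and between 108 and 120 h (4.12%). At an unadjusted p under 0.05 the members numbered 6, 4 and 4 in these 3 intervals. The share of all genes at that limit was not computed, so these counts do not set the members apart. At an adjusted p under 0.05 the members called were 6 at 6 h against 0 h (58% of all genes), 7 between 6 and 24 h (38.4%), 4 between 24 and 48 h (29.9%), 5 between 48 and 72 h (40.9%), 5 between 72 and 96 h (28.9%), 4 between 96 and 108 h (34.3%), 1 between 108 and 120 h (26.9%), 5 at 48 h against 0 h (61.9%) and 6 at 120 h against 0 h (52.2%). These counts are a description of 10 named genes. 

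The median change of the 10 genes stood farthest from 0 over 6 to 24 h among the 9 comparisons, at -0.74 against -0.01 over all genes, with 9 of the 10 changes negative. It was 0.43 against 0.01 over 72 to 96 h, where all 10 changes were positive. Without replicate A at 96 h that median was 0.98, with 10 positive, and without replicate B it was 0.013, with 5 positive. Against 0 h it was 0.28 at 6 h (-0.05 over all genes), with 7 positive, and 0.37 at 120 h (-0.02), with 6 positive. In the remaining 5 comparisons it lay between -0.09 and 0.18. Marker genes of other cell types moved over 6 to 24 h too. The neuroectoderm markers measured (3 of 4 listed) summed to 63.3 (A) and 57.7 (B) CPM at 6 h and to 22.1 and 26.5 CPM at 24 h, and those of primitive endoderm (4 of 5) to 12.9 and 13.5 CPM and then 3.80 and 4.43 CPM. The pluripotency markers summed to 5225 and 5350 CPM and then to 3626 and 3572 CPM, the feeder markers to 12.3 and 12.0 CPM and then 7.59 and 7.85 CPM, and those of primitive streak and mesoderm to 18.7 and 19.8 CPM and then 16.3 and 18.4 CPM. In the first 6 h, in which Mdm2 and Ccng1 rose, the neuroectoderm sum went up from 17.8 and 14.4 CPM and the pluripotency sum from 4425 and 4859 CPM. The primitive endoderm sum went up from 6.82 and 7.55 CPM and that of primitive streak and mesoderm from 14.8 and 14.1 CPM. The feeder sum went down from 24.3 and 28.1 CPM. At 120 h the neuroectoderm sum was 201 and 186 CPM, that of primitive endoderm 41.7 and 43.2 CPM and the feeder sum 102 and 91.7 CPM. Single markers of a list again differed from 0 to 120 h. Of the feeder markers Col1a1, Col1a2, Col3a1 and Postn were called higher and Thy1 lower (4.37 to 1.82 log2 CPM). Of the primitive endoderm markers Gata4 and Dab2 were called higher, while Sox7 went from 1.47 to 0.66 log2 CPM and was not called. The part of these cells in the changes was not tested.

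When library medians were set equal, the median of all genes moved by 0.12 at 6 h and by 0.14 at 48 h against 0 h. The upward share of all calls then moved from 45% to 55.8% at 6 h and from 48.7% to 59.6% at 48 h, both against 0 h, from 59.7% to 48.8% between 48 and 72 h and from 70.5% to 54.3% between 72 and 96 h.

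The changes of the fourth day depended on which 96 h library was kept. Replicate B was above replicate A by 1.69 log2 units for Cdkn1a, 1.31 for Phlda3, 1.21 for Trp53 and 0.98 for Mdm2, and the median difference was 0.61 over the 10 genes and -0.01 over all genes. At no other time point did the members differ by more than 0.87, which was Bbc3 at 72 h. Without replicate A at 96 h, 5 genes rose from 72 to 96 h, beside 7.01% of all genes. These were Cdkn1a (2.08), Phlda3 (1.60), Trp53i11 (1.33), Mdm2 (1.03) and Trp53 (0.92). Without replicate B only Trp53i11 rose (1.13), beside 2.76%, while from 96 to 108 h Cdkn1a (1.81, adjusted p = 1.3e-08) and Mdm2 (0.83, adjusted p = 1.8e-05) rose, beside 5.41%. Without replicate A, Trp53 fell by 0.99 and Bbc3 by 1.34 in that interval, beside 10.8%, and Cdkn1a (0.12) and Mdm2 (-0.14) were not called. Without replicate B, Trp53 was at 0.21 and Bbc3 at -0.74, also not called. With both left out, 5 genes fell from 6 to 24 h (14.8% of all genes called), 2 changed between 48 and 72 h (13.5%), 4 differed between 0 and 48 h (34.6%) and 3 between 0 and 120 h (26.5%). Other values moved with this difference. The primitive streak and mesoderm markers measured (4 of 5 listed) summed to 97.1 CPM in A and 462 CPM in B at 96 h, against 55.9 to 128 CPM from 102 to 120 h. The pluripotency markers summed to 1715 and 2345 CPM, the neuroectoderm markers to 116 and 124 CPM and the feeder markers to 24.2 and 9.27 CPM. Single markers of a list went in both directions. In log2 CPM, Sox1 was at 3.62 in A and 1.96 in B, Pax6 at -0.76 and -1.48 and Nes at 6.69 and 6.90. Sox2 (7.89 and 7.75) and Dppa5a (9.20 and 9.08) were lower in B, and Pou5f1, Nanog, Zfp42 and Esrrb were higher. The libraries held 30690825 and 25524270 counted reads. The part of these values in the difference was not tested.

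**Figure D3:**
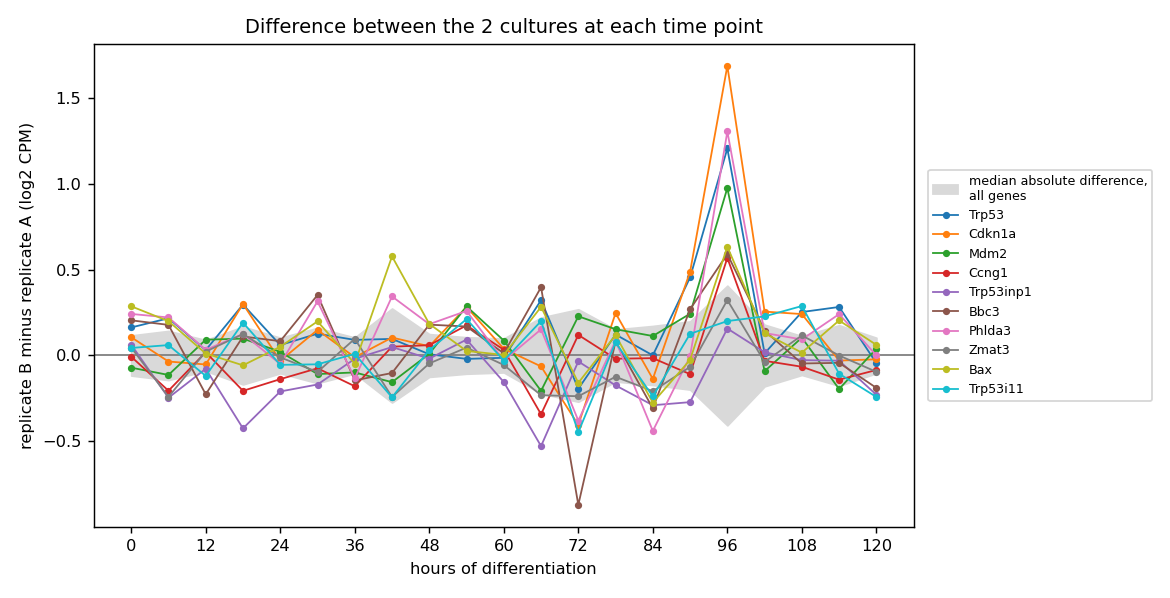
Difference between the cultures (replicate B minus replicate A, log2 CPM, vertical axis) for each gene at each time point, with the median absolute difference over all genes as the grey band. All 10 genes are above 0 at 96 h, where Cdkn1a reaches 1.69, and lie near the band at most other times.

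Levels of different genes were compared per kilobase of exon. At 0 h Trp53 was the highest (6.57 log2 CPM per kb), followed by Bax (6.39) and Ccng1 (6.02), and the lowest were Cdkn1a (4.13) and Zmat3 (3.61). Trp53 and Bax differed by less than the duplicates of Bax did (0.29), and Mdm2 (5.19) from Trp53inp1 (5.16) and Phlda3 (4.90) from Trp53i11 (4.87) by less than the SD between duplicates of either gene. At 120 h Ccng1 was the highest (6.98), followed by Trp53 (6.56) and Mdm2 (6.21), and Cdkn1a (5.29) had moved from rank 9 to rank 6. Cdkn1a then differed from Phlda3 (5.15), next in rank, by less than the SD between duplicates of either gene, as did Mdm2 from Bax (6.10). At 48 h Trp53i11 was the lowest (2.48).

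Other genes of the pathway were taken from lists of regulators, relatives, targets and genes repressed through p21, of which 64 of 65 were measured. From 0 to 6 h 12 of these rose and 7 fell, 29.7% of them against 26.3% of all genes, from 0 to 48 h 4 rose and 6 fell (15.6% against 30.4%), and from 0 to 120 h 8 rose and 8 fell (25% against 23%). Against 0 h the listed genes thus moved in both directions and at shares near or under those of all genes. Between 48 and 72 h and between 72 and 96 h the share of listed genes called was above that of all genes. Over 6 to 24 h, 24 to 48 h, 96 to 108 h and 108 to 120 h it was under it. Of the 45 calls against 0 h, 21 passed with each library of either time point left out.

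Targets in growth arrest included Sfn, with the largest rise of the listed pathway genes in the first 6 h. Sfn, the cell cycle adaptor stratifin, was at 4.44 (A) and 4.34 (B) log2 CPM at 0 h, at 8.60 and 8.60 at 6 h, at 3.22 and 3.36 at 48 h and at 7.69 and 7.78 at 120 h. It rose 18.5-fold from 0 to 6 h (log2 change 4.21, SE 0.23, adjusted p = 2.8e-14) and was 10.2-fold higher at 120 h than at 0 h (3.34, adjusted p = 1e-12). Of the 10 genes of this list, 4 rose from 0 to 6 h (Sfn, Plk3 by 2.06, Gadd45a by 0.76 and Fbxw7 by 0.68), Sesn1 fell by 1.18 and 5 were not called, beside 11.8% of all genes called higher and 14.5% lower. From 0 to 120 h Sfn, Plk2 (1.63), Btg2 (1.14) and Gadd45a (0.72) rose and Sesn1 fell by 1.48, beside 12.9% higher and 10.1% lower, and from 0 to 48 h Plk3 rose by 0.80 and Btg2 fell by 0.66. Plk2 and Plk3 are kinases of the polo family, Gadd45a is a damage response protein and Btg2 an antiproliferative factor. The calls of Fbxw7, of Gadd45a at 120 h and of Plk3 and Btg2 at 48 h were lost with at least 1 library left out.

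Of the 13 targets in cell death, 2 rose in the first 6 h and 0 fell, beside the same shares of all genes. Perp, a membrane protein of cell contacts, rose by 2.41 from 0 to 6 h (SE 0.16, adjusted p = 2.4e-12) and by 1.40 from 0 to 120 h (adjusted p = 3.6e-08). Aen, a nuclease active in apoptosis, rose by 1.09 from 0 to 6 h and by 0.92 from 0 to 48 h, both calls lost with at least 1 library left out. Tnfrsf10b, a death receptor for the ligand TRAIL, rose by 0.82 from 0 to 120 h (SE 0.08, adjusted p = 1.4e-09), and Ei24 fell by 0.54, a call lost with at least 1 library left out.

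Of the 14 targets in repair and metabolism, 5 fell in the first 6 h, 1 rose and 8 were not called, beside 14.5% of all genes called lower and 11.8% higher. The gene that rose was Tigar, an enzyme that lowers glycolysis (1.70, SE 0.18, adjusted p = 9e-09). Those that fell were Ephx1, an epoxide hydrolase, by 2.80 (SE 0.22, adjusted p = 5.2e-11), the stress cytokine Gdf15 by 2.79, the peptide transporter Tap1 by 2.24 (SE 0.17, adjusted p = 3e-11), the damage recognition protein Ddb2 by 1.34 (SE 0.14, adjusted p = 7e-09) and Ercc5 by 0.56. From 0 to 48 h 5 fell, beside 15.6% of all genes called lower, Ephx1 by 3.55, Gdf15 by 3.09, Ak1 by 1.28, Ddb2 by 0.98 and Xpc by 0.64, and 0 rose. From 0 to 120 h Tap1 (0.93) and Ercc5 (0.54) rose, and Gdf15 fell by 2.55, Ephx1 fell by 2.22 and Epha2 fell by 1.24. Gdf15 was a low gene, at a mean of 1.95 log2 CPM at 0 h and -0.85 at 6 h. The calls of Gdf15, Ercc5, Ak1, Xpc and Epha2, of Ddb2 at 48 h and of Tap1 at 120 h were lost with at least 1 library left out.

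Of the 20 regulators of p53, Sirt1, a deacetylase of p53, rose by 1.37 from 0 to 6 h (SE 0.15, adjusted p = 1.3e-08), the acetyltransferase Ep300 by 1.08 and the deubiquitinase Usp10 by 0.41. Chek2, the checkpoint kinase that phosphorylates p53, fell by 1.90 (SE 0.09, adjusted p = 5.4e-15). Beside these, 11.8% of all genes were called higher and 14.5% lower at 6 h. From 0 to 48 h Trp53bp1 (1.11) and the ubiquitin ligase Cop1 (0.62) rose, beside 14.8% of all genes called higher. From 0 to 120 h Chek2 fell by 1.04 and Chek1 by 0.56, beside 10.1% called lower. The calls of Ep300, Usp10, Cop1 and Chek1 were lost with at least 1 library left out. Mdm4, the partner of Mdm2, changed by -0.48 from 0 to 6 h (SE 0.45, adjusted p = 0.37). Of the relatives of p53 only Trp73 was measured, and it passed the threshold in none of the intervals. Of 6 genes repressed through p21, Plk1 (0.61) and Ccna2 (0.51) rose from 0 to 6 h, beside 11.8% of all genes called higher. Ccna2 fell by 0.47 from 0 to 120 h, beside 10.1% called lower. These calls of Plk1 and Ccna2 were each lost with at least 1 library left out.

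The courses of the 10 genes were compared with each other by Pearson's r over the 21 time points within each culture. These values describe courses whose neighbouring points depend on each other and whose genes share libraries, and no p was computed. The 96 h pair, in which all 10 genes were higher in B, entered each r, and r without it was not computed. Of 45 pairs, 16 were above 0.5 and 4 below -0.5 in both cultures. Mdm2 and Phlda3 (0.88 in A, 0.77 in B), Ccng1 and Zmat3 (0.83 and 0.83) and Cdkn1a and Trp53inp1 (0.81 and 0.79) were alike, and so were Trp53 and Bax (0.85 and 0.85). Trp53 ran opposite to Trp53inp1 (-0.81 and -0.74) and to Cdkn1a (-0.69 and -0.54), and Bax ran opposite to the same genes. The 10 genes thus did not share a single course.

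**Figure D4:**
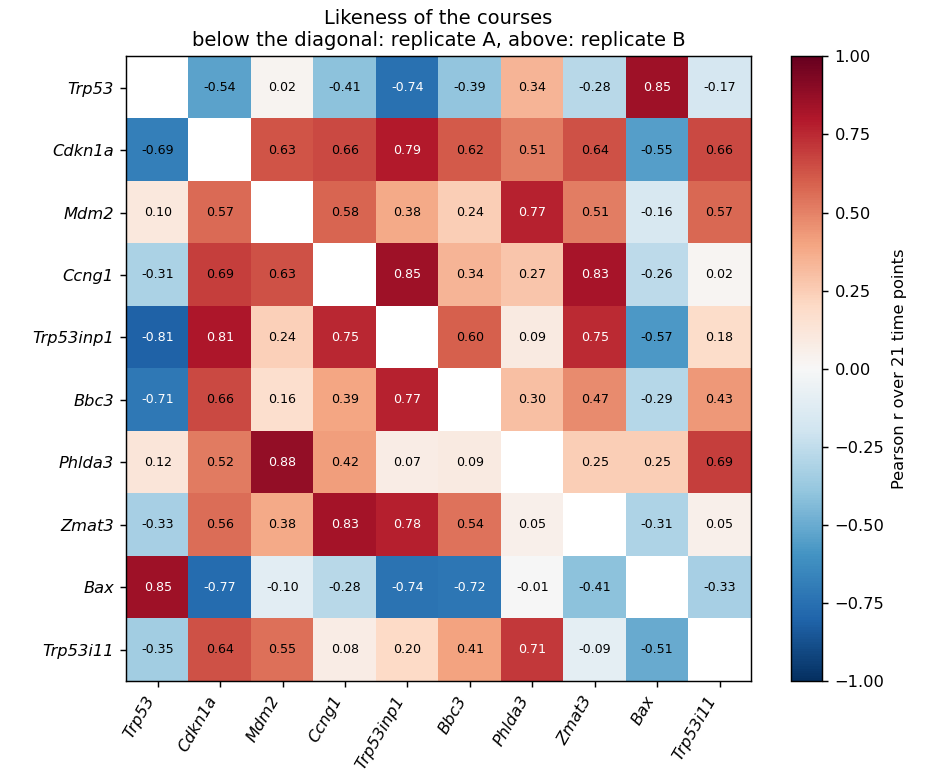
Pearson's r between the courses of each pair of genes over 21 time points, below the diagonal in replicate A and above it in replicate B (colour and number). Trp53 and Bax (0.85 in both) form a pair that is negative against Cdkn1a and Trp53inp1.

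The 12910 genes whose mean reached 0 log2 CPM were then ranked by the lower of their r in A and B to each member. This ranking is again a description and includes the 96 h pair. The nearest to Cdkn1a were Btg2 (0.945), Tnfrsf10b (0.934) and Tmem43 (0.923), and the nearest to Ccng1 was Plk2 (0.937). Btg2, Tnfrsf10b and Plk2 are all on the lists of p53 targets above. Those lists were chosen with earlier results of these data known, and how often a nearest gene is on them was not tested. The gene nearest to Zmat3 was Ccng1 (0.826). The nearest to Trp53 were Zfp428 (0.970), Eif2b1 (0.967), a subunit of a translation initiation factor, and Mpdu1 (0.959), none of them on those lists. For the rest, the nearest gene was Cpeb4 to Mdm2 (0.917), Rap2a to Trp53inp1 (0.944), Lmbr1l to Bbc3 (0.831), Myd88 to Phlda3 (0.868), Gm29394 to Bax (0.958) and Esyt1 to Trp53i11 (0.954).

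**Figure D5:**
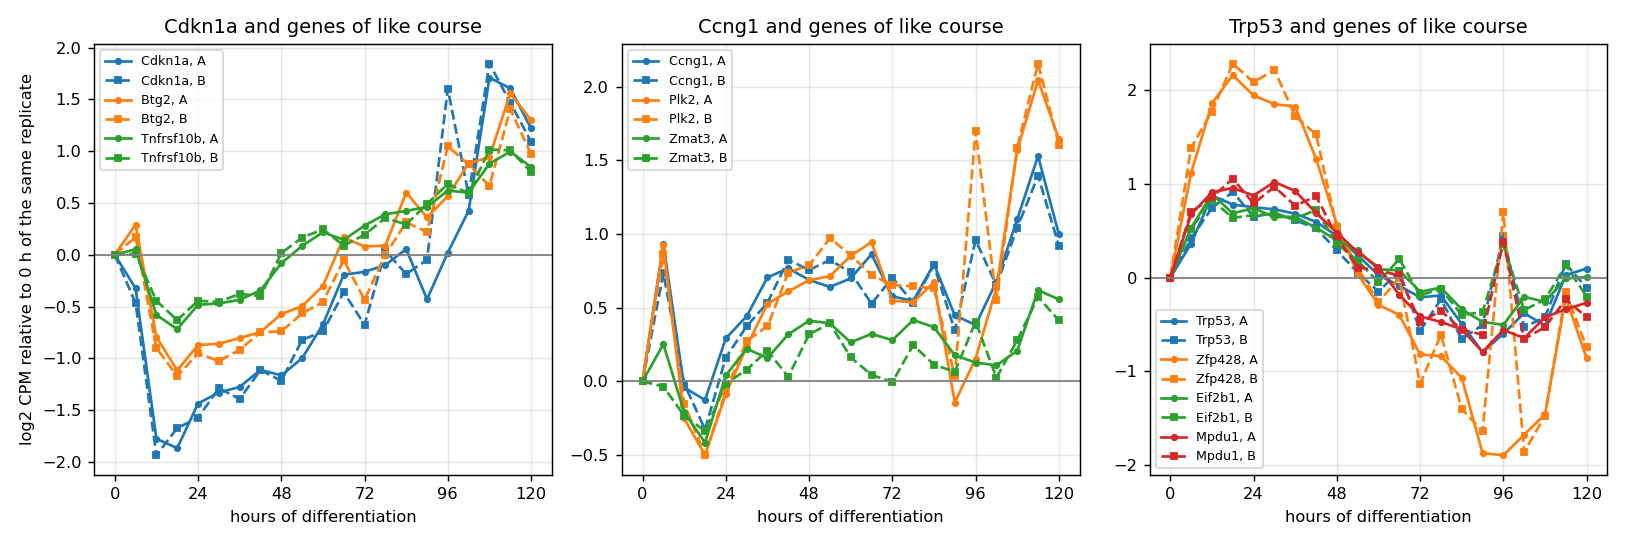
Level relative to 0 h of the same culture (log2 CPM, vertical axes) by hours of differentiation for Cdkn1a, Ccng1 and Trp53 with genes of like course, replicate A as solid and replicate B as dashed lines. Cdkn1a, Btg2 and Tnfrsf10b are low from 12 h and high at the end, Ccng1 and Plk2 peak at 6 h and 114 h, and Trp53, Zfp428, Eif2b1 and Mpdu1 are high between 12 and 42 h.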

How the data were processed

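Levels were measured by stranded poly-A RNA sequencing in 42 libraries, grouped by the labelled time point. According to their notes and methods, the authors used Trim Galore for trimming, TopHat2 for alignment to mm10, HTSeq for counts on GENCODE vM2 genes, edgeR for library size and voom for the transformation. Versions are not given in the sources used here. The values deposited by the authors are log2 CPM with the voom offset of 0.5 reads, for genes that passed an expression filter of the authors. Whole reads were recovered from them to within 2.91e-08. Of 14296 genes, 14177 matched GENCODE vM21 (GRCm38) by identifier. A level of 3 reads is between 0.057 and 0.316 CPM, which covers counting error only.

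Changes were tested with limma 3.58.1 in R 4.3.3 (lmFit, eBayes with trend) with a factor of 21 time points over all libraries, 21 residual degrees of freedom and Benjamini-Hochberg adjustment within each of 9 contrasts at adjusted p < 0.0001. The scripts were tested on simulated data. Replicates A and B are separate cultures. The letters also link the libraries of a culture, whose residuals had a mean correlation of 0.08, positive in 68.6% of 210 pairs of time points, so that a replicate block was an alternative. Other alternatives were library medians set equal, a filter at a mean of 0 log2 CPM, log2(CPM + 1), voom weights and each library left out. The 10 genes and the gene lists were chosen with earlier results of these data known. All 10 are named, with every called gene of the pathway lists from 0 h to 6, 48 and 120 h, the 3 genes nearest in course to Trp53 and Cdkn1a and the first for each other gene. Python 3.11.15 and pandas 2.3.3 were also used.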

Additional observations from a re-analysis of the deposited data

How the results depend on the processing

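Over all 90 tested changes of the 10 genes, 815 of 880 alternative values kept direction and side of the threshold, 19 were no longer past it, 20 were newly past it and 26 changed sign. The 20 changes whose sign turned were not past the threshold. With library medians set equal, Ccng1 was -0.045 and Trp53inp1 -0.049 over 72–96 h, and Mdm2 was 0.080 at 48 h against 0 h. With each library left out in turn, over 72–96 h Trp53 ran from -0.29 to 0.92, Ccng1 from -0.25 to 0.32, Trp53inp1 from -0.053 to 0.10, Zmat3 from -0.033 to 0.29 and Bax from -0.063 to 0.57, lowest without replicate B and highest without replicate A at 96 h (Ccng1 was also -0.030 without replicate A at 72 h). Over 96–108 h Trp53 ran from -0.99 to 0.21, Mdm2 from -0.14 to 0.83, Trp53inp1 from -0.022 to 0.14, Phlda3 from -0.39 to 0.92, Zmat3 from -0.19 to 0.14 (0.035 without replicate A at 108 h) and Bax from -0.53 to 0.11. Over 48–72 h Mdm2 ran from -0.21 to 0.015 and Bbc3 from -0.36, without replicate A at 72 h, to 0.51 (-0.017 without replicate A at 48 h). Bax ran from -0.047 to 0.14 over 24–48 h, Zmat3 from -0.013 to 0.23 over 0–6 h and from -0.22 to 0.024 over 6–24 h, Trp53 from -0.088 to 0.075 (0.016 without replicate B at 120 h) over 0–120 h, and Trp53inp1 from -0.23 to 0.00038 and Phlda3 from -0.088 to 0.0051 over 108–120 h. For the 45 calls of other pathway genes, 361 of 447 values kept the call, and 80 of the 86 that did not came from leaving out a library. With 1 library left at a time point, it is assumed to vary like the others. The replicate block raised the members called over 24–48 h to 2 and changed no other count beyond 1.5 times. The filter, log2(CPM + 1) and voom weights changed no call of a member. The other settings by which calls of other pathway genes were lost were the library medians (Btg2 -0.52 and Xpc -0.50 at 48 h, Ercc5 -0.44 at 6 h and 0.52 at 120 h) and, for Btg2 at 48 h, log2(CPM + 1) and voom weights.

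For the following ranges, single libraries were left out only at the time points that a comparison used, not at other times such as 96 h. In the order 0–6, 6–24, 24–48, 48–72, 72–96, 96–108, 108–120, 0–48 and 0–120 h, the genes called were 3762, 1630, 1282, 1341, 484, 999, 589, 4349 and 3286. With each library left out in turn they ran from 2292 to 2478, 882 to 935, 679 to 720, 545 to 841, 156 to 1002, 410 to 1550, 182 to 222, 2898 to 2998 and 2169 to 2270 in the same order. The members called ran from 0 to 2, 1 to 1, 0 to 0, 0 to 0, 1 to 5, 0 to 2, 0 to 0, 1 to 1 and 1 to 1. At an adjusted p under 0.05, a threshold chosen after seeing the data, the genes were 8293, 5494, 4275, 5851, 4137, 4909, 3842, 8849 and 7460, and the members 6, 7, 4, 5, 5, 4, 1, 5 and 6. With both 96 h libraries left out, also chosen after seeing the data, 930 genes were called over 108–120 h, and 5 members over 6–24 h, 2 over 48–72 h and 4 over 0–48 h. With 2 libraries per time point, the spread between cultures limits small changes, as the 96 h pair shows.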
